A study of Mus musculus with 16 samples.

Results

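The AP-1 transcription factors were examined here as a set of 9 genes chosen by name: Fos, Fosb and Fosl2 of the Fos family, Jun, Junb and Jund of the Jun family, and Batf, Atf3 and Maff, which are related leucine zipper proteins. All 9 were measured in both deposited tables, out of 11464 genes present in either table. The conventional CD4 T cell (Tcon) table held 11171 genes, and the regulatory T cell (Treg) table held 11067. The study treated Foxp3 reporter mice for 14 days with vehicle or with 50 mg/kg venetoclax, an inhibitor of the anti-apoptotic protein BCL-2. CD4+ cells that lacked FOXP3 (Tcon) and CD4+ cells that carried it (Treg) were then sequenced as bulk RNA from spleen and lymph node. Each of the 4 groups had 4 libraries, which the labels call biological replicates, for 16 in all. Every group came from the B6.Cg-Foxp3tm2Tch/J strain, in which a GFP reporter is linked to Foxp3, and was labelled wild type. The labels used here give neither the age of the mice nor whether a library pooled animals. A code such as VEH1 (vehicle) or ABT1 (venetoclax) names one Tcon and one Treg library.

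AP-1 is a dimer of basic leucine zipper proteins that binds DNA at short palindromic sites. Fos proteins pair with Jun proteins, while Jun proteins can also pair with each other. Fos, Fosb, Jun and Junb are immediate early genes, whose transcripts appear within minutes of T cell receptor signals, cytokines or stress and are then quickly degraded. BATF is a partner of JUN proteins that works with IRF4 in effector T cells and in tissue Treg cells, and it lacks the transactivation domain of FOS.

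Libraries held 22982210 to 24960570 reads in the Tcon table and 21335006 to 25027038 in the Treg table. The level of Foxp3 fitted the labels, at 648 to 761 normalized counts in Tcon libraries and 18016 to 21553 in Treg libraries. A normalized count is a read count divided by a size factor of the library. The Y-linked gene Ddx3y was at or below 1 normalized count in 3 of the 4 vehicle codes and 1 of the 4 venetoclax codes, so Y-linked expression was not balanced between treatments. It was intermediate in the Tcon and Treg libraries of ABT1, at 1468 and 1695, and of ABT3, at 3050 and 2872. The VEH2 and ABT2 libraries had 5326 to 6674. Vehicle Tcon replicate 3 had the highest level of the mitochondrial transcript mt-Co1, at 525898 normalized counts, against 308681 to 351440 in the other Tcon libraries. In Tcon, the summed level of the 6 CD4 T cell markers was 4065 to 4355 CPM (counts scaled to a common library total) with vehicle and 4022 to 4306 with venetoclax. Limma called 1 of these 6 lower in Tcon, where 6.91% of all genes passed. The summed level of 6 Treg markers in Tcon was 136 to 177 CPM with vehicle and 174 to 230 with venetoclax. Limma called 2 of these 6 higher in Tcon and 2 higher in Treg, where 19.6% of all genes passed. Of 33 markers of B, plasma, CD8, NK, myeloid, dendritic, erythroid, platelet and stromal cells, 21 were in the Tcon table and 17 in the Treg table. In limma, none of the 21 passed the adjusted p threshold in Tcon, with 3 at an unadjusted p under 0.05, and edgeR called 0 and DESeq2 1 of them. In Treg, limma and edgeR each called 1 of 17 and DESeq2 called 2, with 5 at an unadjusted p under 0.05 in limma. The part of other cell types in the results below was not tested. Some results are also given without vehicle Tcon replicate 3 or with the Ddx3y level in the model. Ddx3y was unequal between treatments, so that model cannot fully separate sex from treatment. The part of sex and of that library was not otherwise tested.

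The members lie on 7 chromosomes of the mouse genome, in coordinates of GRCm38.p6. Fos (Entrez 14281) lies at chr12:85473890-85477274 on the plus strand, and Batf (53314) follows on the same strand at chr12:85686720-85709087. Junb (16477, chr8:84976909-84978748, minus strand) and Jund (16478, chr8:70697739-70700616, plus strand) share chromosome 8. Fosb (14282) lies at chr7:19302696-19310118 and Jun (16476) at chr4:95049036-95052222, both on the minus strand. Fosl2 (14284, chr5:32136472-32157840) and Maff (17133, chr15:79346621-79359078) are on the plus strand, and Atf3 (11910, chr1:191170296-191183333) is on the minus strand. In the GENCODE M21 annotation, exons of Jun overlapped 232 bases of the antisense gene Junos, and those of Jund overlapped 877 bases of the antisense gene Gm11175. Exons of Junb overlapped 173 bases of Prdx2, a gene on the opposite strand. The sources used here do not say whether the authors counted by strand, so reads in those stretches cannot be assigned to one gene.

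The upstream sequences of Fos, Fosb, Jun, Junb and Maff are shown because these genes had the largest differences between treatments. Each is the 250 bases before the RefSeq transcription start, 5′ to 3′ on the gene's strand, and capitals mark matches to the motifs searched. They lie at chr12:85473640-85473889 (Fos, plus strand), chr7:19310046-19310295 (Fosb, minus), chr4:95052223-95052472 (Jun, minus), chr8:84978749-84978998 (Junb, minus) and chr15:79347270-79347519 (the second of the 3 Maff starts, plus). The starts used for Fosb and Maff lie inside the gene spans given above. Part of the Fosb window and the whole Maff window thus overlap those spans.
Fos: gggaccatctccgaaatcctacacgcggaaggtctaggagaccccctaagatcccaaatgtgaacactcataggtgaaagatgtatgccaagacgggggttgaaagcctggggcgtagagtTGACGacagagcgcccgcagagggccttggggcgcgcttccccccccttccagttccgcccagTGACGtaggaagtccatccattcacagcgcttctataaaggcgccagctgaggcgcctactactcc
Fosb: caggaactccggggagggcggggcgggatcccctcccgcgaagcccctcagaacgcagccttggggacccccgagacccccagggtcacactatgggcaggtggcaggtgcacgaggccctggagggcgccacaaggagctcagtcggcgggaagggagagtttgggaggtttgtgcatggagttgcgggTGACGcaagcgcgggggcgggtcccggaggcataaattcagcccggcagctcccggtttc
Jun: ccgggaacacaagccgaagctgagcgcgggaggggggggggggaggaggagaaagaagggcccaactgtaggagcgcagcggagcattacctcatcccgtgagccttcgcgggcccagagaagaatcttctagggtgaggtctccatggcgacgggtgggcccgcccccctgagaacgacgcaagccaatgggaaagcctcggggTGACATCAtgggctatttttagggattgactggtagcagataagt
Junb: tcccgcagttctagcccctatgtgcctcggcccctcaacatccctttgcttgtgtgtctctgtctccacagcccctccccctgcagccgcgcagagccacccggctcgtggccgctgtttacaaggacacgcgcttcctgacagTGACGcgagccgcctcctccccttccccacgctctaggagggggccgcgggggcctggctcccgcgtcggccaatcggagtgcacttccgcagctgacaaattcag
Maff: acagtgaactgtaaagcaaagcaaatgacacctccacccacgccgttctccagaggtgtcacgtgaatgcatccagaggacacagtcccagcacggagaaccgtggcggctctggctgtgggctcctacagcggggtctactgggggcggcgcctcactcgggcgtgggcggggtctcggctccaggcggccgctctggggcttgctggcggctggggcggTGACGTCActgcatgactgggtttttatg

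All 9 members had an upstream window in the RefSeq table, with 11 windows in all because Maff has 3 starts. The AP-1 site TGACTCA was found on neither strand of any of them, and 4.46% of all 32851 windows held it. The cyclic AMP response element TGACGTCA was found in 1 member, Maff, 29 to 22 bases before its second start, against 1.55% of all windows. The CArG box bound by serum response factor was found in none, against 1.47%. The motifs TGACATCA and TGACG were added after the sequences had been seen. TGACATCA, an octamer related to TGACGTCA, lay 45 to 38 bases upstream of Jun and in the third Maff window, and 2.93% of all windows held it. TGACG, which is contained in TGACGTCA, was found in 7 windows of 6 members, against 17.8% of all windows. In Fos it lay 129 to 125 and 66 to 62 bases upstream, in Fosb 60 to 56 and in Junb 106 to 102. A match describes the letters only, and a missing match says nothing about binding. Only the 250 bases of each window were searched, so a site farther upstream would have been missed.

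Per length of exon, Junb was the most abundant member in all 4 groups and Atf3 the least. In vehicle Tcon, RPKM (reads per kilobase of exon, scaled to a common library total) averaged 483 ± 249 for Junb, 240 ± 128 for Fos, 172 ± 91.7 for Jun and 155 ± 34.6 for Jund (SD, n = 4 throughout). The ranges of these 4 neighbours overlapped, and every Jund library stood above every library of the next member, Batf, at 20.8 ± 1.75. Fosb followed at 15.2 ± 10.7, then Maff at 2.77 ± 2.32 and Fosl2 at 2.18 ± 0.859, whose ranges overlapped in that order. Atf3, at 0.144 ± 0.155 RPKM, lay below every Fosl2 library. In vehicle Treg the order was the same, with Junb at 409 ± 193, Fos at 301 ± 125, Jun at 142 ± 52.3, Jund at 133 ± 20.03 and Batf at 40.4 ± 4.26 RPKM. Fosb was at 23.9 ± 14.2, and all its libraries stood above those of Maff at 1.53 ± 0.552.

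**Figure D1:**
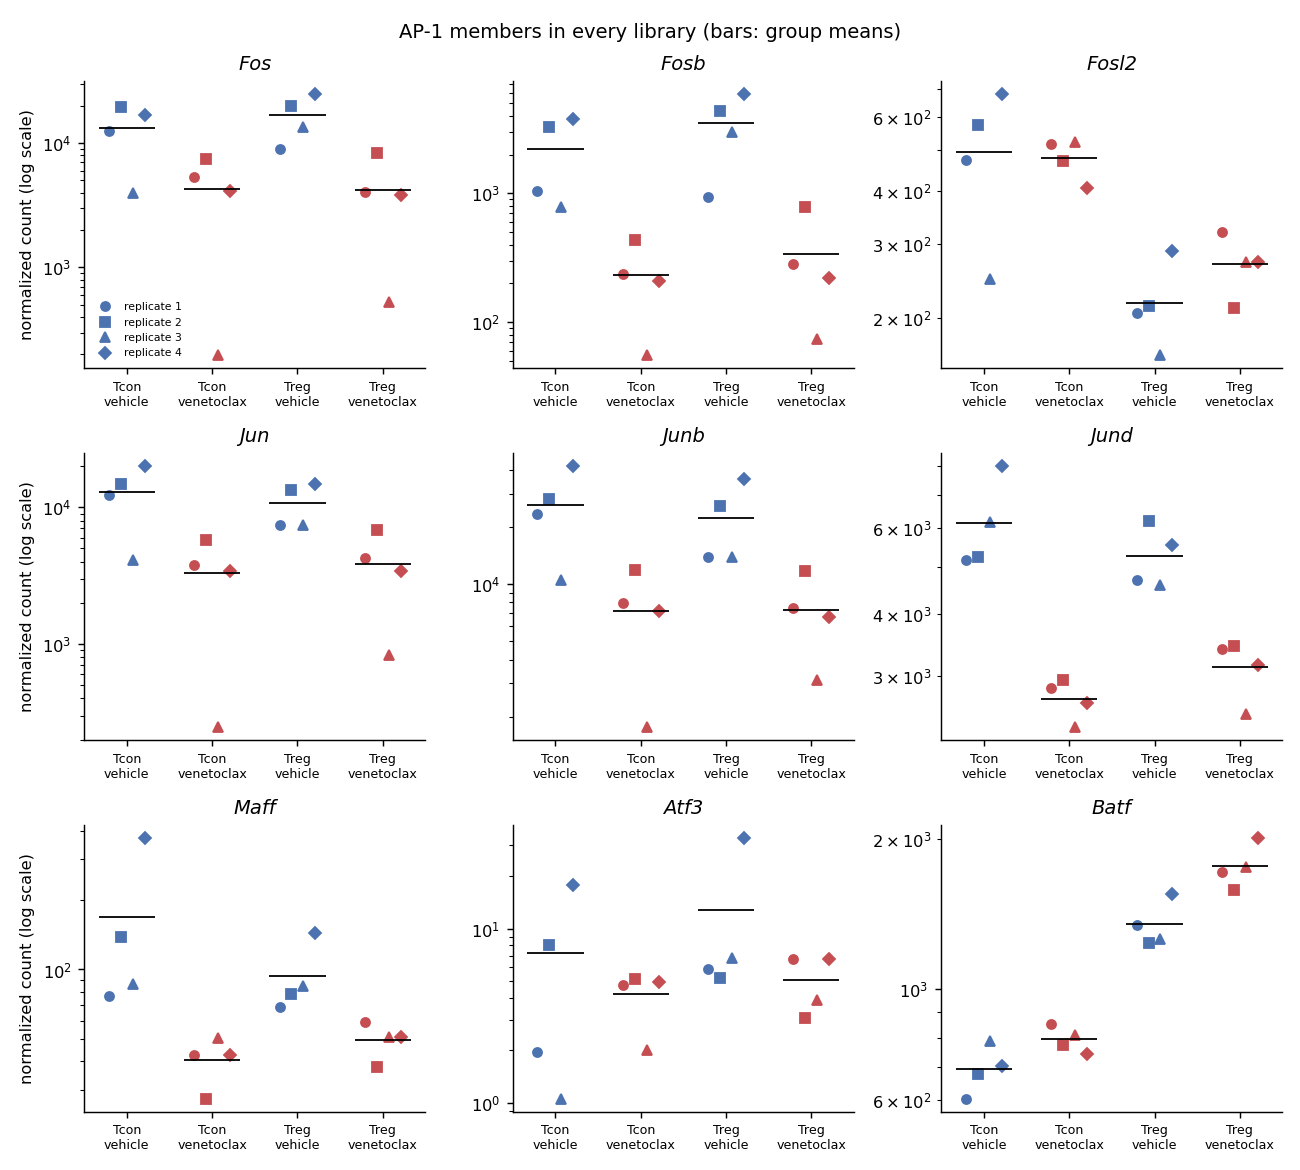
Normalized counts (log axis) of the 9 AP-1 members in the 16 libraries, by subset and treatment, with the marker shape giving the replicate number. In Treg the venetoclax libraries lie below all vehicle libraries for Fos, Fosb, Jun, Junb and Jund, in Tcon this holds for Fosb and Jund, and venetoclax replicate 3 is the lowest library for each of these 5 genes.

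In Tcon, Fosb, Jund and Maff fell with venetoclax, and Fos, Jun and Junb had lower mean values that did not pass limma's test with all libraries unpaired. Fosb, an immediate early partner of JUN, had 1040, 3246, 778 and 3769 normalized counts in vehicle replicates 1 to 4. In venetoclax replicates 1 to 4 it had 235, 432, 55.4 and 209. All 4 venetoclax libraries were below all 4 vehicle libraries, and the fitted change was -3.25 on the log2 scale (SE 0.64, limma adjusted p = 0.0139), or 9.51-fold lower. Log2 changes here are of the normalized count plus 1, with Benjamini-Hochberg adjustment over all genes of the table. In bulk RNA, fewer cells expressing a gene and less RNA per cell cannot be told apart.

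Jund, the Jun protein that is made most steadily in resting cells, had 5150, 5241, 6154 and 8010 normalized counts with vehicle. It had 2839, 2941, 2365 and 2646 with venetoclax, again without overlap. Jund fell by 1.17 on the log2 scale (SE 0.13, limma adjusted p = 0.000943), a 2.25-fold lower level. Maff, a small MAF protein without a transactivation domain, had 76.7, 139, 86.5 and 372 normalized counts with vehicle and 42.5, 27.6, 50.4 and 42.5 with venetoclax. Its groups did not overlap, and the change was -1.75 (SE 0.43, limma adjusted p = 0.0353), or 3.36-fold lower. The Maff call was lost in 5 of the 8 fits that left out 1 library, where limma adjusted p was 0.0841 with vehicle replicate 2 omitted. It was 0.0916, 0.0992, 0.0593 and 0.074 when venetoclax replicate 1, 2, 3 or 4 was omitted. It was also lost with the Ddx3y level in the model (limma adjusted p = 0.138).

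Fos, the founding Fos family member, had 12543, 19575, 3928 and 16659 normalized counts with vehicle and 5315, 7379, 198 and 4144 with venetoclax. The groups overlapped through 1 library, vehicle replicate 3, which was below venetoclax replicates 1, 2 and 4. The fitted change was -2.24 (SE 0.99, limma adjusted p = 0.213). Jun had 12337, 14792, 4120 and 20081 with vehicle against 3813, 5806, 248 and 3401 with venetoclax, where vehicle replicate 3 lay between venetoclax replicates 1 and 2. Its change was -2.41 (SE 0.87, limma adjusted p = 0.127). Junb, which can replace or oppose JUN in AP-1 dimers, had 23300, 28222, 10549 and 41940 with vehicle against 7960, 11809, 1769 and 7250 with venetoclax. Only vehicle replicate 3 and venetoclax replicate 2 overlapped, and the change was -1.98 (SE 0.55, limma adjusted p = 0.059).

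In Tcon, deviations from group means across genes correlated at 0.119 to 0.614 between vehicle and venetoclax libraries of the same number. Between different numbers they reached 0.292, above the same-number values of numbers 1 (0.119) and 4 (0.272). No label links a vehicle number to a venetoclax number. The block was thus chosen from these data, and its p-values hold only if the numbers pair. With the number as a block, limma adjusted p was 0.0018 for Fos, 0.000405 for Jun and 4.06e-05 for Junb, and Fosb, Jund and Maff passed as well. Within numbers 1 to 4, Fos differed by -1.24, -1.41, -4.31 and -2.01 on the log2 scale, and Jun by -1.69, -1.35, -4.05 and -2.56. Junb differed by -1.55, -1.26, -2.58 and -2.53, so that all 3 genes were lower with venetoclax in every number. Without the libraries numbered 3, an alternative chosen with earlier results of these data known, all 6 genes passed as well, against 6.05% of all genes as lower, with Fos at -1.55 (limma adjusted p = 0.000413), Jun at -1.87 (0.000212) and Junb at -1.78 (0.000313). Without vehicle replicate 3 alone, limma adjusted p was 0.0444 for Jun and 0.0117 for Junb. Without venetoclax replicate 3 alone, Fos was at -1.04, Jun at -1.39 and Junb at -1.40 (limma adjusted p = 0.0759 for Junb), and none of them passed.

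Thus 3 of 9 members passed in Tcon without the block, all of them lower, where 6.91% of all genes passed and 2.99% passed as lower. At an unadjusted p under 0.05 in limma the count was 7 of 9, with 6 lower and Batf higher, against 22.6% of all genes. In DESeq2 on the recovered reads Junb also passed, with an adjusted p of 0.0299. With the block 6 of 9 passed, all lower, against 16.8% of all genes and 7.9% as lower. The count was 5, all lower, with vehicle replicate 3 omitted and no block, against 5.4% of all genes. The groups did not overlap for 3 members, all lower, against 7.47% of all genes.

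Batf, Fosl2 and Atf3 did not pass in Tcon. Batf had 604, 678, 787 and 702 normalized counts with vehicle and 851, 775, 811 and 742 with venetoclax, with overlapping groups and a log2 difference of 0.20 (SE 0.09, limma adjusted p = 0.218). Fosl2, a Fos protein that persists longer after stimulation than FOS, had 475, 575, 248 and 679 against 516, 473, 524 and 407. Its vehicle replicate 3 was the lowest of the 8 libraries. The difference was 0.04 (SE 0.26, limma adjusted p = 0.945), and its sign turned without that library, to -0.26. Atf3, a stress-induced gene, was close to the limit of detection at 1.06 to 17.9 normalized counts with vehicle and 2.02 to 5.10 with venetoclax.

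**Figure D2:**
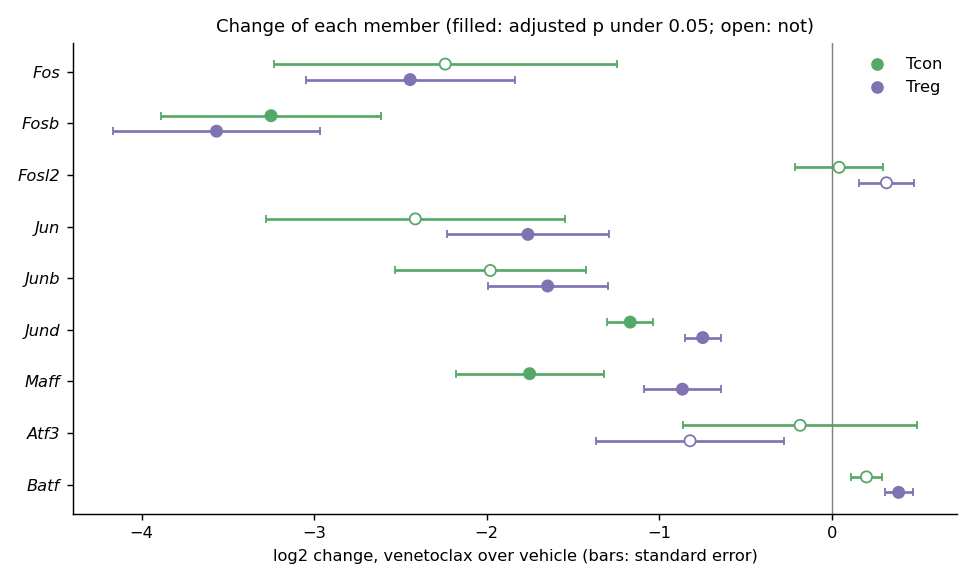
Log2 change of each AP-1 member between venetoclax and vehicle (x axis) in Tcon and Treg, with standard error bars from limma without a replicate block, filled points marking adjusted p under 0.05. Fosb has the largest change in both subsets (-3.25 and -3.57), and Batf is the only member with a filled point to the right of 0.

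In Treg, 6 members fell with venetoclax and Batf rose. Fos had 8936, 19948, 13517 and 24721 normalized counts in vehicle replicates 1 to 4. It had 4076, 8255, 525 and 3846 in venetoclax replicates 1 to 4, all below the lowest vehicle library. Fos fell by 2.44 on the log2 scale (SE 0.61, limma adjusted p = 0.0137), or 5.44-fold. Fosb had 937, 4335, 3004 and 5890 with vehicle and 280, 777, 74.4 and 221 with venetoclax. The highest venetoclax library was again below the lowest vehicle library, and Fosb fell by 3.57 (SE 0.60, limma adjusted p = 0.00162), or 11.8-fold.

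Among the Jun family in Treg, Jun had 7381, 13440, 7436 and 14797 normalized counts with vehicle and 4287, 6814, 825 and 3433 with venetoclax. Its groups were separated, and the change was -1.76 (SE 0.47, limma adjusted p = 0.0197), or 3.39-fold lower. Junb had 13885, 25771, 13889 and 35654 against 7483, 11745, 3114 and 6743. Junb fell by 1.65 (SE 0.35, limma adjusted p = 0.0059), or 3.13-fold, without overlap. Jund had 4694, 6186, 4585 and 5526 against 3398, 3445, 2512 and 3153. Jund showed the smallest fall of the family, -0.75 (SE 0.11, limma adjusted p = 0.000568), or 1.68-fold lower.

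Venetoclax replicate 3 was the lowest Treg library for Fos, Fosb, Jun, Junb and Jund. Without it, the change of Fos was -1.63 (limma adjusted p = 0.00449) and that of Jun -1.14 (0.0111), so both kept their calls with smaller sizes. In DESeq2 on the recovered reads, Jun in Treg had an adjusted p of 0.0619. Maff had 69.1, 78.0, 84.7 and 144 normalized counts with vehicle and 58.9, 37.6, 51.2 and 50.9 with venetoclax. It fell by 0.86 (SE 0.22, limma adjusted p = 0.0163), or 1.82-fold, and the limma adjusted p was 0.0669 with the Ddx3y level in the model and 0.0562 without the libraries numbered 3.

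Batf was the only member that rose, with 1345, 1240, 1260 and 1550 normalized counts in vehicle Treg and 1719, 1580, 1754 and 2011 in venetoclax Treg. Every venetoclax library stood above every vehicle library, although venetoclax replicate 2 exceeded vehicle replicate 4 only narrowly. The change was 0.39 (SE 0.08, limma adjusted p = 0.00555), or 1.31-fold higher. Fosl2 had 205, 213, 164 and 289 against 320, 212, 272 and 272, and its difference of 0.32 (SE 0.16, limma adjusted p = 0.179) did not pass. It passed without vehicle replicate 4, at 0.46 (limma adjusted p = 0.0359). Atf3 had 5.84, 5.20, 6.82 and 33.3 against 6.67, 3.05, 3.87 and 6.72, a difference of -0.82 (SE 0.54, limma adjusted p = 0.313), or -0.24 with vehicle replicate 4 omitted.

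In Treg, 7 of 9 members passed, 6 lower and 1 higher, where 19.6% of all genes passed, 8.81% as lower and 10.7% as higher. The groups did not overlap for 6 members in the lower direction, against 10.7% of all genes, and for 1 in the higher direction, against 12%.

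The difference between the subsets in the response to venetoclax passed for none of the 9 members in limma, where 1.3% of genes passed. At an unadjusted p under 0.05 the count was 1 in limma, against 10.1% of genes, and from the recovered reads edgeR and DESeq2 each called 0 members, with 1 and 2 at an unadjusted p under 0.05, where 1.31% and 2.74% of genes passed. The Treg minus Tcon difference of the log2 changes was -0.20 (SE 1.35) for Fos, -0.32 (SE 1.04) for Fosb, 0.65 (SE 1.14) for Jun and 0.33 (SE 0.76) for Junb. With libraries of the same code treated as a block, the SEs were 0.45, 0.34, 0.38 and 0.23 for these genes, and limma called none of the 9 members, with 2 at an unadjusted p under 0.05, where 3.61% of genes passed. The narrowest error of a falling member was that of Jund, whose difference was 0.42 (SE 0.19, limma adjusted p = 0.466), for a smaller fall in Treg. Maff differed by 0.89 (SE 0.53, limma adjusted p = 0.643) and Batf by 0.19 (SE 0.13). Jund and Maff were the 2 members at an unadjusted p under 0.05 with the code block. Jund then had an SE of 0.14 (limma unadjusted p = 0.00912, adjusted p = 0.133). Maff had an SE of 0.28 (limma unadjusted p = 0.00847, adjusted p = 0.128).

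The members differed widely in their spread between replicates. Within venetoclax Tcon, the highest Fos library exceeded the lowest 37.3-fold, and the SD of log2 values was 2.41, against a median of 0.09 for the 100 genes nearest in level. The SD of Fos was larger than that of 99.96% of all genes in that group. Jun had an SD of 2.07, Fosb 1.24 and Junb 1.20 in the same libraries. In vehicle Treg the SDs were lower for Fos, Jun and Junb, at 0.65, 0.54 and 0.68, and that of Fosb was 1.16. Jund varied far less, with SDs of 0.14 to 0.30 over the 4 groups, and Batf ranged from 0.09 to 0.16.

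**Figure D3:**
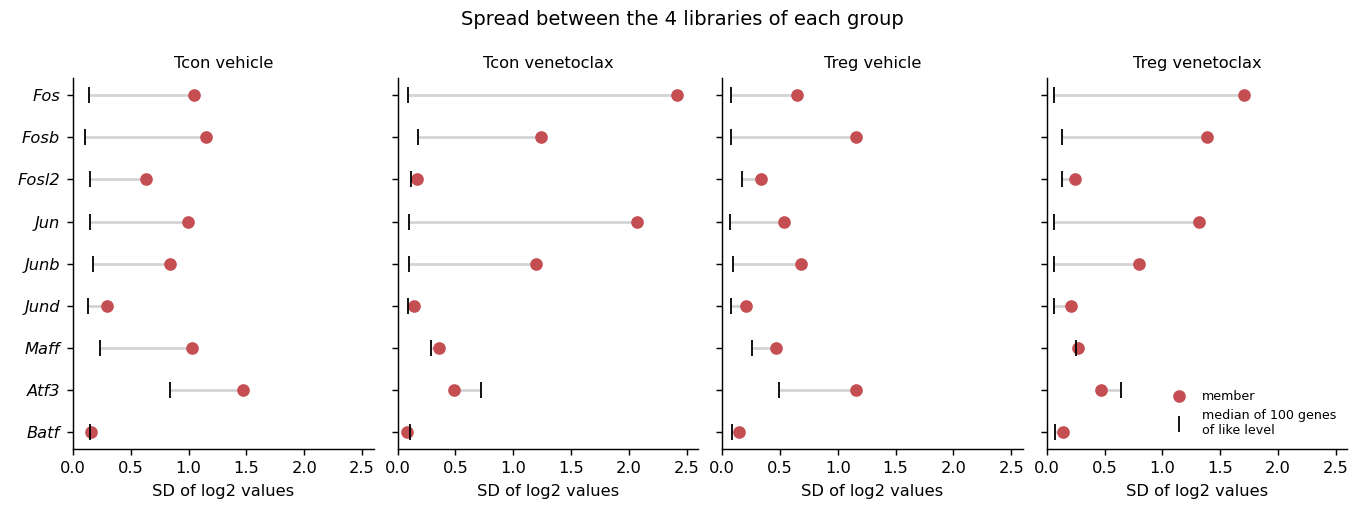
SD of log2 normalized counts over the 4 libraries of each group for the 9 AP-1 members, beside the median SD of the 100 genes of nearest mean level. Fos and Jun in venetoclax Tcon have the highest SDs (2.41 and 2.07). Batf lies near the genes of like level in Tcon. In Treg it lies above them, at 0.146 against 0.086 with vehicle and 0.144 against 0.075 with venetoclax.

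In Tcon, libraries that were low for AP-1 were also low for other immediate early genes. Over a list of 28 immediate early genes outside AP-1, the median log2 deviation from the vehicle mean in Tcon was -0.07, 0.20, -0.57 and 0.41 in vehicle replicates 1 to 4. It was -0.59, -0.51, -0.91 and -0.59 in the venetoclax replicates. Vehicle replicate 3 and venetoclax replicate 3 were thus the lowest of their groups, as they were for Fos, Jun and Junb. In Treg the medians were -0.24, 0.07, -0.19 and 0.38 with vehicle and -0.32, -0.27, -0.48 and -0.48 with venetoclax. The part of whatever these genes share in the AP-1 differences was not tested.

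The AP-1 pool was also described per length of exon. The summed level of the 9 members was 1092 ± 486 RPKM in vehicle Tcon and 353 ± 170 in venetoclax Tcon, and 1052 ± 399 against 399 ± 163 in Treg. Jund made up 15.7% to 38.6% of the Jun family in vehicle Tcon libraries and 20.2% to 62.6% in venetoclax Tcon libraries. In Treg the share of Jund was 14.1% to 25.2% with vehicle and 22.2% to 48.3% with venetoclax. These ranges overlapped in both subsets. In Tcon the overlap came from vehicle replicate 3, at 38.6%, since the other vehicle libraries reached at most 18.1%. Venetoclax replicate 3 set the upper limits of 62.6% and 48.3%, and the other venetoclax libraries reached at most 27.3% in Tcon and 32.1% in Treg. The ratio of Batf to Fos was 0.104 to 0.252 in vehicle Treg and 0.32 to 5.59 in venetoclax Treg, without overlap. In Tcon the ratio was 0.0579 to 0.335 with vehicle and 0.176 to 6.87 with venetoclax, with overlap. Venetoclax replicate 3 alone set both upper limits, and the other venetoclax libraries reached at most 0.299 in Tcon and 0.874 in Treg. The Tcon vehicle limit of 0.335 was that of replicate 3, and the other vehicle libraries reached at most 0.0805. These sums and ratios are descriptions and were not tested.

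**Figure D4:**
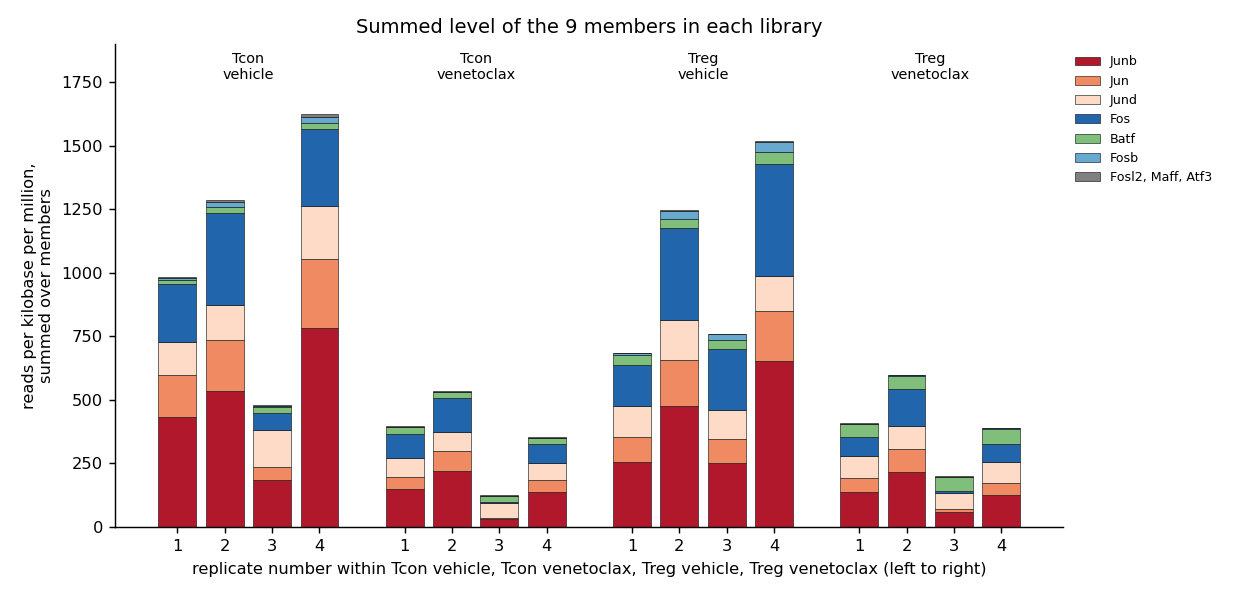
RPKM of the AP-1 members stacked for each of the 16 libraries (bars start at 0). Venetoclax replicate 3 has the smallest sum in both subsets, 125 RPKM in Tcon and 199 in Treg, and Junb is the largest band in most libraries.

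With venetoclax, Junb remained first in both subsets, at 134 ± 77.0 RPKM in Tcon and 134 ± 65.0 in Treg. In Treg it was followed by Jund at 79.9 ± 10.7, Fos at 75.5 ± 57.1, Batf at 53.6 ± 5.90 and Jun at 51.2 ± 32.8, and none of these neighbours was separated in all libraries. In Tcon the order was Fos at 77.4 ± 54.8, Jund at 68.8 ± 7.04, Jun at 44.5 ± 30.8 and Batf at 24.0 ± 1.25, also without full separation between neighbours. Fosb averaged 1.59 ± 1.06 RPKM in Tcon and 2.30 ± 2.07 in Treg.

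Batf was higher in Treg than in Tcon under both treatments, while Fosl2 was lower. With vehicle, Batf stood at 56.9 ± 5.99 CPM in Treg and 29.2 ± 2.46 in Tcon, all Treg libraries being above all Tcon libraries. On the recovered reads, edgeR with the library code as a block gave a log2 difference of 0.89 (adjusted p = 8.65e-05). With venetoclax the levels were 75.3 ± 8.29 and 33.8 ± 1.76 CPM, a difference of 1.09 (edgeR adjusted p = 1.16e-07). The Tcon and Treg tables were normalized separately by the authors, so these comparisons rest on CPM over the 10774 genes of both tables.

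Fosl2 in vehicle libraries was at 9.19 ± 2.22 CPM in Treg and 21.1 ± 8.32 in Tcon. It was lower in Treg in all 4 codes, although the group ranges overlapped, and the difference was -1.21 (edgeR adjusted p = 7.40e-05). With venetoclax it was at 11.5 ± 1.87 against 20.4 ± 2.04 CPM, with every Treg library below every Tcon library (log2 difference -0.90, edgeR adjusted p = 1.02e-05). Maff was lower in vehicle Treg (3.96 against 7.20 CPM, log2 difference -0.76, edgeR adjusted p = 0.0196). Fosb and Jund were higher in Treg with venetoclax, by 0.38 (edgeR adjusted p = 0.0228) and 0.15 (0.0187). In all, 3 members passed with vehicle, where 47.8% of genes passed, and 4 with venetoclax, against 58.1%. The Treg and Tcon libraries did not overlap for 1 member with vehicle, against 36.5% of genes, and for 2 with venetoclax, against 48.5%.

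**Figure D5:**
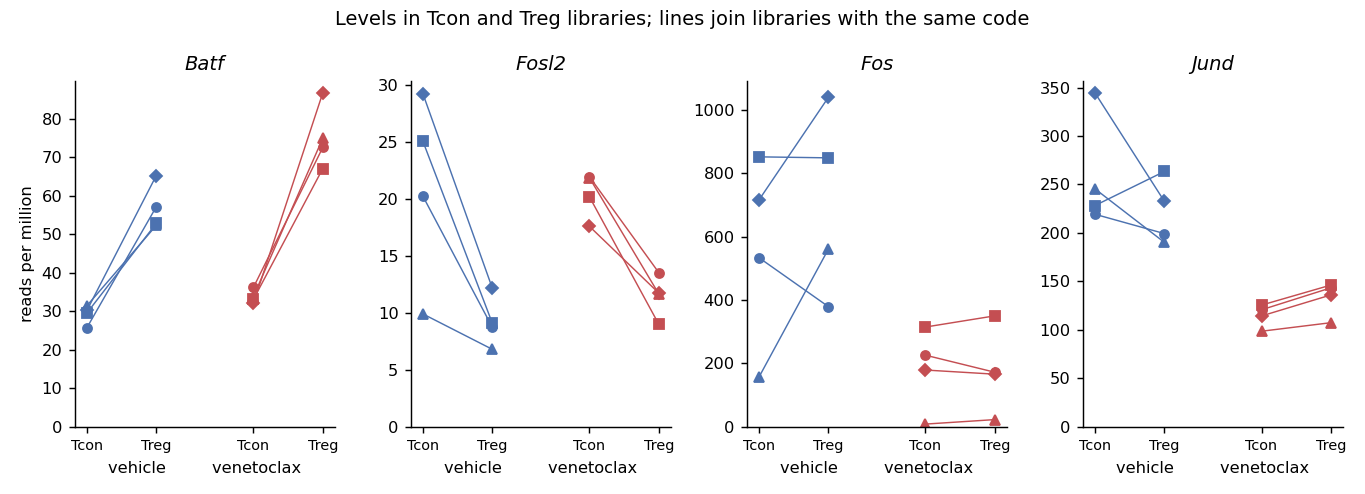
CPM of Batf, Fosl2, Fos and Jund in Tcon and Treg libraries of each treatment, with lines joining libraries of the same code. Batf is higher and Fosl2 lower in Treg than in Tcon along all 8 lines, and the Fos lines run in both directions.

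The profile of Fos over the 16 libraries was nearest to that of Jun, followed by the stress gene Ppp1r15a and by Junb. Likeness was measured as the mean absolute difference of log2 deviations from each table's mean, with a median of 1.33 over 9292 genes of sufficient level. It was 0.31 for Jun, 0.53 for Junb and 0.81 for Fosb, and 1.38 and 1.47 for Fosl2 and Batf. The nearest genes outside the family were Ppp1r15a (0.44), which encodes a phosphatase subunit of the stress response, and Dusp1 (0.56), a phosphatase of MAP kinases. Klf4 (0.62), a zinc finger factor, Rhob (0.67), a small GTPase, and Bambi (0.69), a pseudoreceptor of the TGF-beta family, came next.

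Among 28 immediate early genes outside AP-1, 10 fell and none rose in Tcon, and 14 fell and 1 rose in Treg, with median log2 changes of -0.69 and -0.39. With the block in Tcon, 18 fell and 2 rose. For comparison, limma called 2.99% of all genes as lower in Tcon and 8.81% in Treg, and the block called 7.9% as lower in Tcon. The median over all genes was 0.00 in both subsets. Ier2, an early response gene, fell by 0.83 in Tcon (SE 0.14, limma adjusted p = 0.00734) and by 0.72 in Treg (SE 0.12, 0.00122). Ier5 fell by 0.72 and Zfp36l1, which encodes an mRNA decay factor, by 0.49 in Tcon (limma adjusted p = 0.00383 and 0.011). In Treg, Nr4a1, an orphan receptor induced by antigen receptor signals, fell by 0.85 and Klf2 by 0.49 (limma adjusted p = 0.00339 and 0.00295).

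Of 19 measured leucine zipper factors outside the members, 3 fell and none rose in Tcon, where 6.91% of all genes passed, and 4 fell and 5 rose in Treg, where 19.6% passed. With the block in Tcon, 4 fell and 2 rose, against 16.8% of all genes. Atf4, the main factor of the integrated stress response, fell by 0.54 in Tcon (SE 0.12, limma adjusted p = 0.0289) and by 0.55 in Treg (SE 0.09, 0.00101). Cebpb and Bach1 also fell in Tcon, by 1.36 and 0.36 (limma adjusted p = 0.0325 and 0.0479). Maf, a large MAF factor of effector and regulatory T cells, rose by 0.91 in Treg (SE 0.10, limma adjusted p = 0.000119), whereas Mafk, a small MAF protein like MAFF, fell by 0.43 (0.00129).

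Of 27 kinases and factors upstream of AP-1, 1 rose and 1 fell in Tcon, and 2 rose and 4 fell in Treg, with medians of 0.01 in both. These counts are close to the shares of all genes that passed, 6.91% in Tcon and 19.6% in Treg. With the block in Tcon 3 rose and 1 fell, against 16.8% of all genes. In Tcon, Mef2a fell by 0.30 (limma adjusted p = 0.0411). In Treg, Map3k8 fell by 0.53 and Mef2a by 0.33, and Map2k3 rose by 0.40 (limma adjusted p = 0.00167, 0.00195 and 0.00334).

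Of 10 factors that bind DNA with AP-1, none passed in Tcon without the block, with 3 at an unadjusted p under 0.05 in limma and edgeR, and DESeq2 called 1 higher and 1 lower. With the block in Tcon, 3 rose and 2 fell, where 16.8% of all genes passed. The same list had 4 that rose and none that fell in Treg, where 10.7% of all genes passed as higher. Irf4, the partner of BATF, rose by 0.61 in Treg (SE 0.08, limma adjusted p = 0.000313), Stat3 by 0.25 (0.00438) and Nfatc1 by 0.27 (0.0153).

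Of 19 genes known as AP-1 targets in T cells and measured in Tcon, 5 rose and none fell (median log2 change 0.34), and of 16 in Treg, 5 rose and 1 fell (median 0.20). The shares of all genes that passed were 6.91% for Tcon and 19.6% for Treg, the latter made up of 10.7% higher and 8.81% lower. With the block in Tcon, 7 of these targets rose and 1 fell, where 16.8% of all genes passed. DESeq2 on the recovered reads called 6 higher and 0 lower in Tcon, and 6 higher and 2 lower in Treg. Il2ra and Ctla4 of this list are also Treg markers. Ccnd2, which encodes cyclin D2, rose by 1.14 in Tcon (SE 0.11, limma adjusted p = 0.000513) and by 0.60 in Treg (SE 0.08, 0.000356). Vim and Il2ra, encoding vimentin and the alpha chain of the IL-2 receptor, rose in Tcon by 0.77 and 0.98 (limma adjusted p = 0.000513 and 0.00589). In Treg, Il1rl1, the IL-33 receptor, rose by 1.23 and the costimulatory receptor Icos by 0.50 (limma adjusted p = 0.000518 and 0.00036).

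The authors' deposited table gave log2 changes for Fos, Fosb and Jun that were much smaller than the counts show. In the authors' deposited table, Fosb in Tcon had a log2 change of -0.10 (SE 0.20) beside an adjusted p of 0.000434, and Fosb in Treg had -0.08 beside 0.000282. In the authors' deposited table Fos stood at -0.03 in Tcon and -0.06 in Treg, with adjusted p of 0.311 and 0.0382. Junb, in the authors' deposited table, was at -1.17 in Tcon and -1.23 in Treg (adjusted p = 0.0366 and 0.00819). By the adjusted p of the authors' deposited table, 4 members passed in Tcon, where 11.3% of genes passed, and 6 in Treg, where 20.5% passed. The sources used here do not say how those log2 values were computed.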

How the data were processed

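RNA-seq of 4 vehicle and 4 venetoclax libraries from each of Tcon and Treg was used, as 1 table per subset. Alignment used HISAT2 and SAMtools on mm10, per the submitters' processing notes; the sources used here do not give versions, the counter, the strand setting or filters. The authors deposited a normalized signal, called a normalized count here, without a stated method. In each column all values were whole multiples of 1 constant, within 0.01 of a read, so they were taken as reads divided by a size factor, and the reads and depth were recovered. The tables also hold the authors' own log2 fold changes and p-values, which were copied but not used in any test. Exact repeat lines (40 in Tcon, 43 in Treg) were dropped, and no sample column was left unused.

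The main test was limma 3.58.1 (R 4.3.3) on log2 of the normalized count plus 1, over all genes of a table, or over the 10774 shared genes for the difference between subsets, with Benjamini-Hochberg adjusted p under 0.05. edgeR 4.0.16 and DESeq2 1.42.0 were run on recovered reads, and the limma step was tested on simulated data. CPM and RPKM were computed from recovered reads, with merged exon lengths from GENCODE M21. For the members, the library total was taken over genes of both tables. For the summed levels of marker lists, it was taken over all genes of the subset's own table. Alternatives were another pseudocount, a floor on the mean (50 normalized counts), other scalings, a replicate block, the Ddx3y level as covariate and leaving out each library. Pairing was checked by correlating deviations from group means. Same-numbered vehicle and venetoclax libraries correlated at 0.119 to 0.614 in Tcon, and different-numbered ones at -0.472 to 0.292. In Treg the ranges were -0.04 to 0.414 and -0.586 to 0.363. The block was reported for Tcon and not for Treg, a choice made from these values, although the same codes number both subsets. The labels do not state what a number shares, so the design does not establish this pairing. Same-code Tcon and Treg libraries correlated at 0.416 to 0.697 with vehicle and 0.371 to 0.557 with venetoclax.

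Named genes were all 9 members, up to 3 genes of each list with the smallest p in each subset, and the 5 genes nearest to Fos above that floor. A gene that this rule names is not reported here. The members, lists and named genes were chosen with earlier results of these data known. Protein sequences were not used here.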

Additional observations from a re-analysis of the deposited data

Results flagged for a closer look

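Of 36 groups of 4 libraries (9 members in 4 groups), 2 had a library far from the other 3 on the scale of normalized counts, both for Atf3, and chance alone gives about 5 percent of groups. In venetoclax Tcon, replicate 3 was the lowest library at 2.02 normalized counts. In vehicle Treg, replicate 4 was the highest at 33.3 normalized counts. Both values rest on few reads. On the log2 scale the same 2 groups stood out, and in venetoclax Tcon replicate 3 also stood apart as the lowest library for Fos, at 198 normalized counts, and for Jun, at 248.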

How the results depend on the processing

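In Tcon, 6 members passed with the replicate block and 6 without the libraries numbered 3, and 2 to 5 when 1 library was left out; in Treg the count was 7 to 8 when 1 library was left out, and for the difference between subsets it was 0. The block changed no other call of a member. Between Treg and Tcon, edgeR with the block called 3 members with vehicle and 4 with venetoclax, against 47.8% and 58.1% of all genes. Ranges did not overlap for 1 member with vehicle and 2 with venetoclax, against 36.5% and 48.5% of all genes. Over all genes, Tcon calls went from 772 to 1371 with DESeq2, 1880 with the block, 1443 without the libraries numbered 3, 326 with the Ddx3y level and 306 to 1244 with 1 library left out. Treg calls went from 2164 to 1028 without the libraries numbered 3 and 1327 to 2198 with 1 library left out. Calls for the difference went from 140 to 295 with DESeq2, 389 with the block and 43 to 149 with 1 library left out. The sign of Fosl2 in Tcon turned with edgeR (-0.0483), DESeq2 (-0.0488), the Ddx3y level (-0.13) and without the libraries numbered 3 (-0.30), and ranged from -0.26 to 0.23 with 1 library left out. Atf3 in Tcon ranged from -0.67 to 0.40, and the difference between subsets from -0.58 to 0.23 for Fos and from -0.60 to 0.10 for Fosb, the latter at 0.0888 without the libraries numbered 3. In Tcon, DESeq2 also called Junb (adjusted p = 0.0299). Atf3 has no value under the minimum mean of 50. The cause of these changes was not tested. Among the members' log2 changes under these alternatives, 451 kept direction and side of the threshold, 13 changed sign, 10 came past the threshold and 9 fell short of it. Low counts limit Atf3 most.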
